A study of Mus musculus with 6 samples.

Results

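The genes described here encode the NRF2 antioxidant response, the thioredoxin and glutathione systems and other enzymes that remove oxidants. They are 39 genes chosen by symbol, each with 1 row, among the 54232 genes of the count table. RNA sequencing was carried out on livers of 6 mice aged 8 weeks on normal chow. Of these, 3 were knockout (KO) mice, labelled Nogo-/-, and 3 were wild-type (WT) littermates. Nogo is the product of Rtn4, a reticulon protein that bends membranes of the endoplasmic reticulum into tubules, and the labels do not say which part of the gene was removed or in which cells. The libraries are called KO 1, 2 and 4 and WT 2, 4 and 11 after their titles.

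NRF2, encoded by Nfe2l2, is a transcription factor that KEAP1 holds in the cytoplasm and passes to a CUL3 ubiquitin ligase for degradation. When oxidants or electrophiles modify KEAP1, NRF2 accumulates, pairs with a small MAF protein and binds antioxidant response elements (ARE) near genes for glutathione synthesis, thioredoxin recycling and detoxification. In the liver these enzymes deal with peroxide from mitochondria and peroxisomes and with reactive products of drug metabolism. Thioredoxins and glutaredoxins reduce protein disulfides and are themselves reduced at the expense of NADPH.

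Because NRF2 acts through the ARE, RefSeq promoter sequences (build GRCm38.p6) were searched for its core, TGACNNNGC, on both strands. The window ran from 250 bases before to 50 bases after each annotated start. Promoters were matched for 34 of the 39 genes, and 9 of the 34 held the core (26.5%), against 3781 of the 27025 genes of the promoter table (14.0%). The 9 were Nfe2l2, Mafg, Ugdh, Gclm, Txnrd1, Srxn1, Sod1, Prdx1 and Mt2. The 39 genes were chosen as NRF2 and antioxidant genes, so their higher share follows in part from that choice and is not a separate result. Sites outside this window were not searched. A match is a run of letters and not a bound site. The ARE core was not in this window of Txn1 and Gpx3, which rose, nor in that of Hmox2, Txnrd2, Glrx3 and Glrx5, which fell. The sequences below are shown because they hold the core in 2 of the 4 genes that rose in KO liver, Mafg and Sod1, and in 3 classical antioxidant genes that did not pass the test, Gclm, Txnrd1 and Prdx1. Each has up to 50 bases on either side, is written 5′ to 3′ on the strand of its gene and has the core in capitals; in all 5 it lies on the opposite strand of the gene.
Mafg: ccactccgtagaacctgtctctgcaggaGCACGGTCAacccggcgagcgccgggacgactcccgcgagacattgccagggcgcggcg
Sod1: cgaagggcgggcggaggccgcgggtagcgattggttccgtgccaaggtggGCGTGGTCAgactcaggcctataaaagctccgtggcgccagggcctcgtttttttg
Gclm: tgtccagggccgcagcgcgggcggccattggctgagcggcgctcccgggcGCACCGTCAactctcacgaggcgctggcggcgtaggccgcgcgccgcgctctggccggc
Txnrd1: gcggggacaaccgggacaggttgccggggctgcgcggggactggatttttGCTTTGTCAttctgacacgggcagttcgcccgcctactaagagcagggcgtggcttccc
Prdx1: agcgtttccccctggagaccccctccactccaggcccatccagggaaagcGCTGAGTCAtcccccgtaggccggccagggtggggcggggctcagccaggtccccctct
The Mafg window is chr11:120633711-120633797 (minus strand), and its core lies 222 to 214 bases before the start; 30 bases of this window lie in an exon of Gm17586. The Sod1 window is chr16:90220656-90220761 (plus strand), with the core at 56 to 48 bases before the start and 8 bases in an exon that GENCODE gives to Sod1 itself. The Gclm window is chr3:122245373-122245481 (plus strand) and lies in no annotated gene. The Txnrd1 window is chr10:82859064-82859172 (plus strand), before the second of 3 starts and within an intron of the gene. The Prdx1 window is chr4:116685416-116685524 (plus strand) and lies in no annotated gene. The metal response element, searched as TGCGCNC and TGCACNC on both strands, was in the promoters of 8 of the 34 genes (23.5%), against 28.2% of all genes of the promoter table, and was present in both Mt1 and Mt2.

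The libraries held 17568223 to 20902369 counts. Levels are CPM, counts brought to a common library size with TMM factors, and a floor of 3 counts was 0.139 to 0.199 CPM in single libraries. Rtn4 was at 4.63, 8.22 and 4.69 CPM in KO 1, 2 and 4, against 40.5, 52.8 and 56.0 CPM in WT 2, 4 and 11, so each library carried the Rtn4 level of its label. Mitochondrially encoded genes took 28.6%, 19.7% and 11.8% of the counts in KO 1, 2 and 4, and 6.17% to 6.90% in the WT libraries. The hepatocyte markers Alb, Ttr, Apoa1, Fgb, Tat, Cps1 and Ass1 summed to 75175 to 109380 CPM in KO and 86618 to 103433 CPM in WT libraries, most of it from Alb (49073 to 70030 CPM in KO, 59163 to 70802 CPM in WT). Of the 7, Cps1, a urea cycle enzyme, fell, at 781, 758 and 1510 CPM in KO 1, 2 and 4, against 3036, 3263 and 2466 CPM in WT 2, 4 and 11 (−1.52 ± 0.29, adjusted p = 0.0102), and the other 6 did not pass. Summed marker levels of T and NK cells (8.24 to 17.8 CPM in KO, 3.15 to 4.23 CPM in WT), B cells (9.09 to 16.5 against 3.18 to 3.76 CPM) and neutrophils (7.94 to 19.1 against 2.94 to 3.58 CPM) did not overlap between genotypes, and 4 of 5, 4 of 5 and 3 of 3 tested markers rose. Markers of sinusoidal endothelium summed to 91.3 to 152 CPM in KO and 158 to 210 CPM in WT libraries, and 4 of the 7 fell. The sums of Kupffer cell, stellate cell, cholangiocyte and red blood cell markers overlapped. No Kupffer or stellate cell marker was called, while 1 of 5 cholangiocyte markers fell (Epcam, −1.30 ± 0.38, adjusted p = 0.0407). Of 5 red blood cell markers, Hba-a2 rose (1.56 ± 0.37, adjusted p = 0.0195) and Alas2 fell (−1.05 ± 0.26, adjusted p = 0.0234), and the value of Hba-a2 is uncertain, since Hba-a1 is a near-identical copy. No marker measured was at 0 in any library. In whole liver, fewer cells of a type and less RNA per cell cannot be told apart, and the part of these differences in the results below was not tested.

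The antioxidant genes did not move as one group in KO liver: 4 rose, 4 fell and 30 of the 38 tested did not pass. The risers were Mafg, a small MAF partner of NRF2, the cytosolic thioredoxin Txn1, the cytosolic superoxide dismutase Sod1 and the plasma glutathione peroxidase Gpx3. The genes that fell were Txnrd2, the mitochondrial thioredoxin reductase, Hmox2, the constitutive heme oxygenase, and the glutaredoxins Glrx3 and Glrx5. A gene was called at an adjusted p under 0.05 (edgeR's quasi-likelihood test, Benjamini-Hochberg over all 13304 tested genes, two-sided), and only such genes are said to have risen or fallen. Over all tested genes 17.0% were called, 8.76% higher and 8.29% lower in KO, so the share of called members, 21.1%, was near the background. The median log2 fold change, KO over WT, was 0.01 over the 38 members and 0.01 over all tested genes. The levels of 11 members did not overlap between genotypes, against 38.9% of all tested genes. The members together took 0.599%, 0.710% and 0.864% of the counts in KO 1, 2 and 4, and 0.833%, 0.817% and 0.907% in WT 2, 4 and 11. These are shares of all counts, of which mitochondrially encoded genes took 28.6%, 19.7% and 11.8% in KO 1, 2 and 4. In WT 2, 4 and 11 those genes took 6.90%, 6.17% and 6.71%. A larger mitochondrial share lowers the share of all other genes, so these values do not show a loss of member RNA.

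**Figure D1:**
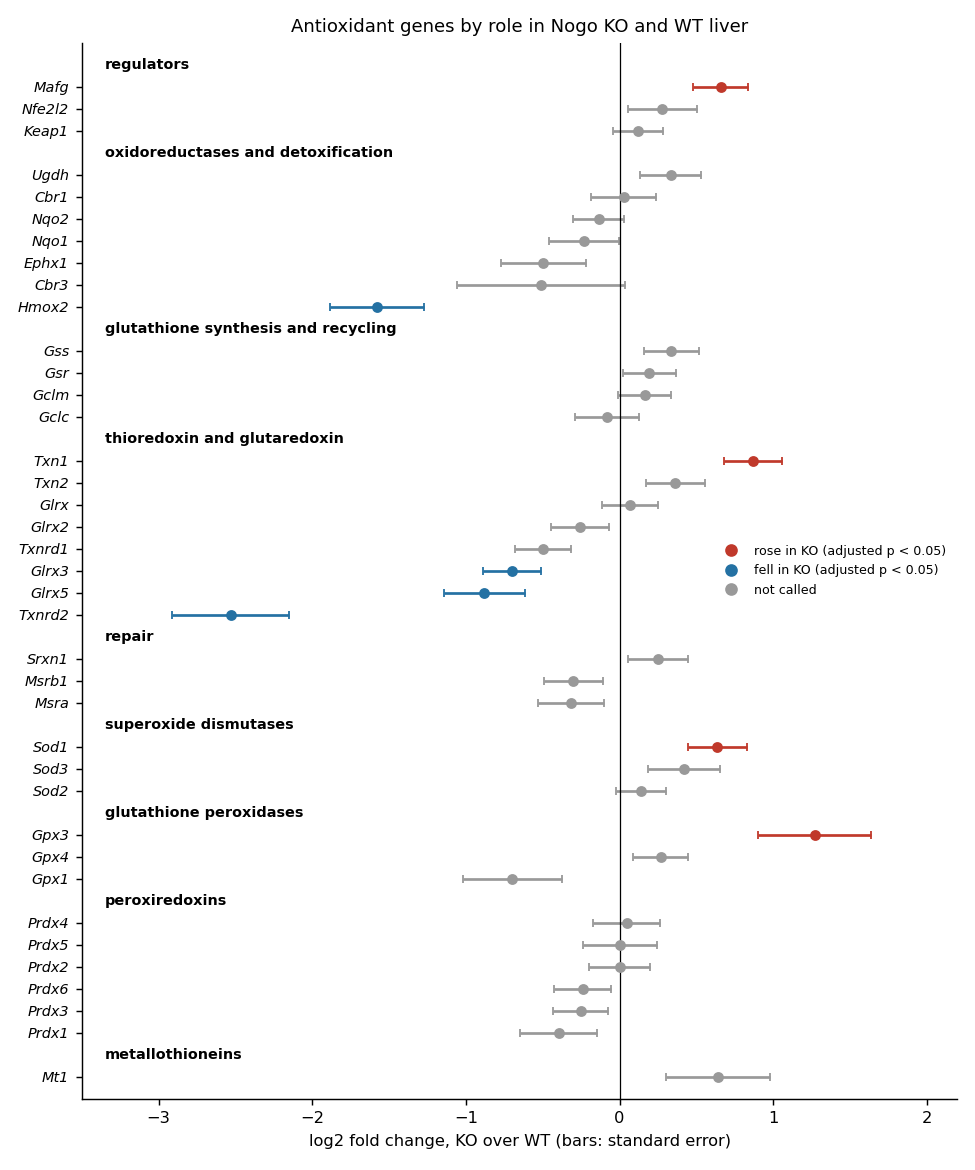
Log2 fold change (x axis, KO over WT, bars are standard errors, 3 livers of each genotype) of the 38 tested antioxidant genes, grouped by role down the page. The 4 genes that rose lie between 0.64 and 1.27 and the 4 that fell between −2.53 and −0.70, while the other 30 are drawn in grey.

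How far the calls depend on single livers differs between the genes. Hmox2 and Txnrd2 were called in each of the 6 fits that left out 1 library. The other 6 called members each lost the call in 3 to 5 of these fits, while the sign stayed, which non-overlapping groups nearly fix. KO 4, which had the smallest mitochondrial share among the KO livers, was the KO library nearest the WT mean for 19 of 38 tested members and for 6 of the 8 called ones, and for 51.7% of all tested genes. Members called higher and lower numbered 0 and 2 without KO 1, 1 and 2 without KO 2, 4 and 9 without KO 4, 0 and 2 without WT 2, 0 and 2 without WT 4, and 3 and 2 without WT 11. Without KO 4, 29.4% of all tested genes were called, and without the other libraries 4.57% to 12.3%. KO 4 alone was also set against the WT livers, a comparison added with the data in view. Only WT supplies the spread there, so no calls are given from it. When the mitochondrial share was added to the edgeR model, the only tool run in this way, 0 of 13304 genes and 0 members were called, while 1146 genes and 5 members had an unadjusted p under 0.05. Scaling by library totals in place of TMM put the median of all tested genes at −0.16, against 0.01 with TMM, and left 2 members higher and 4 lower. With library totals 17.0% of all tested genes were called.

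The regulators were led by Mafg. Mafg, on chromosome 11 from 120625117 to 120633600, was at 106, 95.1 and 78.6 CPM in KO 1, 2 and 4, against 54.4, 57.0 and 65.7 CPM in WT 2, 4 and 11. All 3 KO livers lay above all 3 WT livers, averaging 93.1 ± 13.6 CPM in KO and 59.0 ± 5.95 CPM in WT (SD, n = 3 each), with a log2 fold change of 0.66 ± 0.18 (SE, adjusted p = 0.0335). The call was lost without KO 1 (adjusted p = 0.108), KO 2 (0.0847), WT 2 (0.156) or WT 4 (0.139), and with library totals (0.125). Nfe2l2 itself was at 69.8, 53.3 and 36.5 CPM in KO 1, 2 and 4, against 41.9, 44.4 and 45.1 CPM in WT 2, 4 and 11. Its KO livers spread to both sides of the WT livers (0.28 ± 0.23, adjusted p = 0.413). Keap1, which targets NRF2 for degradation, was at 42.8, 49.8 and 41.8 CPM in KO and 39.5, 44.2 and 40.1 CPM in WT livers, with overlapping groups (0.12 ± 0.16, adjusted p = 0.633). About 10.9% of the exon length of Keap1 is overlapped by Gm16754 on the other strand.

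The classical NRF2 targets Nqo1, Gclc, Gclm and Srxn1 did not pass the test. Nqo1, a quinone reductase and a standard readout of NRF2 activity, was at 4.97, 6.18 and 4.39 CPM in KO 1, 2 and 4, against 5.70, 6.40 and 6.18 CPM in WT 2, 4 and 11 (−0.23 ± 0.23, adjusted p = 0.507). Gclc, the catalytic subunit of the enzyme that limits glutathione synthesis, was at 267, 268 and 174 CPM in KO and 269, 259 and 221 CPM in WT livers. KO 4 was the lowest of the 6 (−0.08 ± 0.21, adjusted p = 0.819). Gclm, the modifier subunit of the same enzyme, was at 221, 282 and 236 CPM in KO and 217, 229 and 214 CPM in WT livers, with KO 2 the highest (0.16 ± 0.17, adjusted p = 0.537). Srxn1, which reduces over-oxidised peroxiredoxins, was at 24.9, 34.7 and 28.3 CPM in KO and 23.9, 21.2 and 28.8 CPM in WT livers (0.25 ± 0.19, adjusted p = 0.392). Glutathione synthetase Gss (0.34 ± 0.18) and glutathione reductase Gsr (0.19 ± 0.17) also did not pass, so 0 of the 4 genes of glutathione synthesis and recycling were called. Missing the threshold does not show that the levels were equal.

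**Figure D2:**
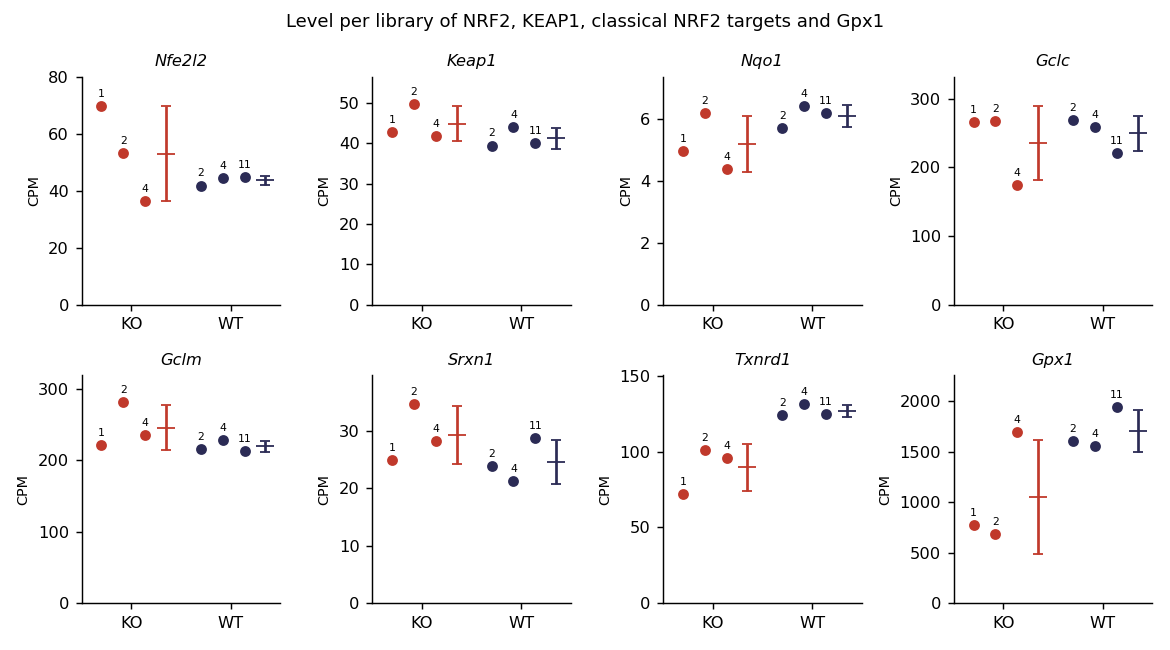
Level per library (y axis, CPM from 0) of Nfe2l2, Keap1, 5 NRF2 target genes and Gpx1 in KO (red, left) and WT (dark, right) livers; points are single livers with their replicate number and bars show mean and SD. The groups overlap in all panels except Txnrd1, and for Gpx1 KO 4 sits among the WT livers while KO 1 and 2 sit at 771 and 680 CPM.

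Among the other oxidoreductases and detoxification enzymes, Hmox2 fell and 6 did not pass. Hmox2, on chromosome 16 from 4726361 to 4766742, degrades heme to biliverdin, iron and carbon monoxide. It was at 7.48, 7.68 and 17.6 CPM in KO 1, 2 and 4, against 34.0, 33.0 and 31.1 CPM in WT 2, 4 and 11. All KO livers lay below all WT livers, KO 4 being the closest, with 10.9 ± 5.80 CPM on average in KO and 32.7 ± 1.47 CPM in WT (SD, n = 3 each) and a log2 fold change of −1.58 ± 0.31 (adjusted p = 0.0107). The value is uncertain, since 40.2% of the exon length of Hmox2 is overlapped by Cdip1 on the other strand and whether the counting used strand is not given in the sources used here. Cdip1 was at 132, 92.8 and 99.0 CPM in KO and 76.6, 64.5 and 73.7 CPM in WT livers (0.59, not called). Ephx1, the microsomal epoxide hydrolase, was at 327, 293 and 499 CPM in KO and 439, 414 and 724 CPM in WT livers (−0.49 ± 0.27, adjusted p = 0.229) and was called only without KO 4 among the fits that left out a library (−0.77, adjusted p = 0.0413). The remaining members of the group were Nqo2 (−0.13), Ugdh, which makes UDP-glucuronate (0.33), and the carbonyl reductases Cbr1 (0.03) and Cbr3 (−0.51, at 5 to 18 counts per library).

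Of the 8 thioredoxin and glutaredoxin genes 1 rose and 3 fell, where 8.76% of all tested genes were called higher and 8.29% lower. The count is small and rests on single livers. Among the 6 fits that left out 1 library, Txn1 was called in 3, Glrx3 and Glrx5 in 1 each, and Txnrd2 in all 6. Txn1, on chromosome 4 from 57943373 to 57956411, was at 563, 436 and 460 CPM in KO 1, 2 and 4, against 255, 243 and 300 CPM in WT 2, 4 and 11. The groups did not overlap, the averages being 486 ± 67.6 CPM in KO and 266 ± 29.9 CPM in WT (SD, n = 3 each) and the log2 fold change 0.87 ± 0.19 (adjusted p = 0.0148). The call was lost without KO 1 (adjusted p = 0.0530), WT 2 (0.0744) or WT 4 (0.0879). Txnrd1, the cytosolic selenoenzyme that reduces Txn1, was at 72.3, 101 and 96.0 CPM in KO and 124, 132 and 125 CPM in WT livers. Its groups did not overlap either, but it missed the threshold (−0.50 ± 0.18, adjusted p = 0.0822), except without KO 4 (−0.56, adjusted p = 0.0422). Txn1 and its reductase thus had fold changes of opposite sign, of which that of Txn1 was called.

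In the mitochondrial pair the reductase was the gene that fell. Txnrd2, on chromosome 16 from 18426384 to 18479073, was at 0.662, 1.66 and 2.05 CPM in KO 1, 2 and 4, against 7.36, 6.83 and 11.4 CPM in WT 2, 4 and 11. All KO livers lay below all WT livers, the averages being 1.46 ± 0.715 CPM in KO and 8.52 ± 2.49 CPM in WT (SD, n = 3 each) and the log2 fold change −2.53 ± 0.38 (adjusted p = 0.00542). This was the lowest fold change of the 38 tested members. Txn2, the thioredoxin that Txnrd2 reduces, was at 217, 219 and 276 CPM in KO and 169, 167 and 218 CPM in WT livers (0.36 ± 0.19, adjusted p = 0.207).

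Both glutaredoxins that fell are of the type that carries iron-sulfur clusters. Glrx5 is the mitochondrial carrier needed to pass clusters to other proteins. It lies on chromosome 12 from 105032688 to 105042906 and was at 57.6, 73.3 and 127 CPM in KO 1, 2 and 4, against 156, 151 and 167 CPM in WT 2, 4 and 11. KO 4 lay between the other KO livers and the WT livers (−0.88 ± 0.27, adjusted p = 0.0457), and the call was lost without KO 1 (0.134), KO 2 (0.137), WT 2 (0.103), WT 4 (0.106) or WT 11 (0.101). Glrx3, a cytosolic member on chromosome 7 from 137437614 to 137468594, was at 35.2, 37.4 and 51.7 CPM in KO and 69.6, 69.2 and 63.1 CPM in WT livers. The groups did not overlap (−0.70 ± 0.19, adjusted p = 0.0324), the call was lost without KO 1 (0.110), KO 2 (0.105), WT 2 (0.112), WT 4 (0.109) or WT 11 (0.0528), and 15.1% of the 50-base words in its transcripts also occur elsewhere in the transcriptome. The classical glutaredoxins, which reduce glutathionylated proteins, did not pass, with −0.26 ± 0.19 for the mitochondrial Glrx2 and 0.07 ± 0.18 for the cytosolic Glrx.

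**Figure D3:**
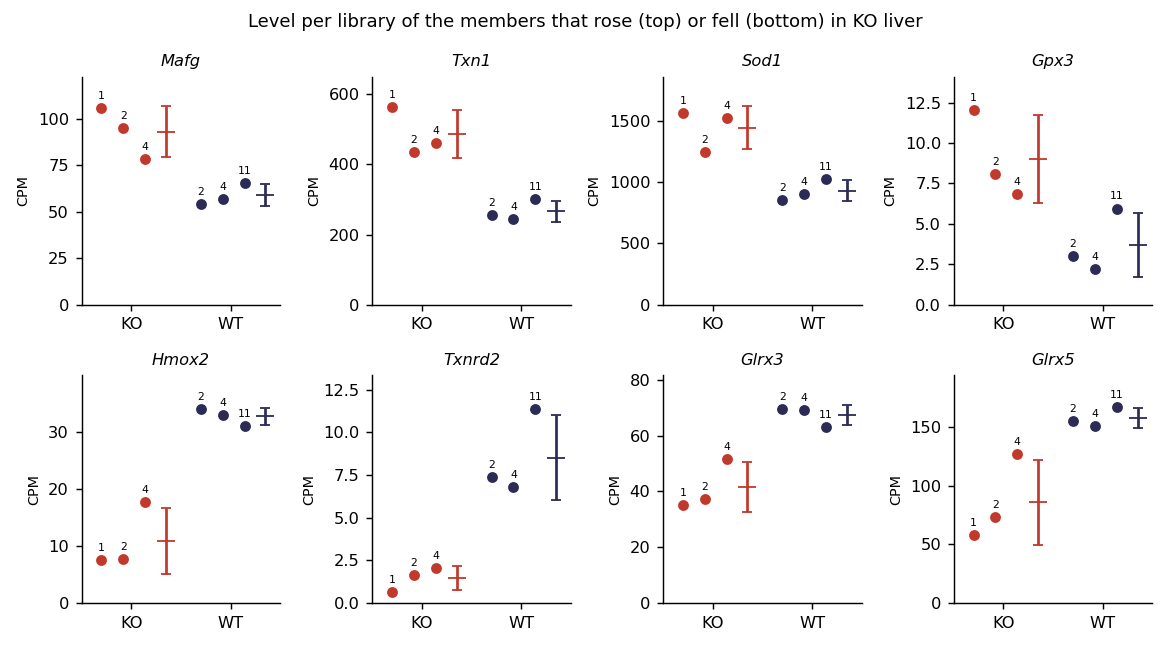
Level per library (y axis, CPM from 0) of the 8 members that were called, in KO (red, left) and WT (dark, right) livers; points are single livers with their replicate number and bars show mean and SD. In every panel the 3 KO points lie on one side of the 3 WT points, and KO 4 is the KO point nearest to WT in 6 of the 8.

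Of the superoxide dismutases, which turn superoxide into hydrogen peroxide, the cytosolic one rose. Sod1, on chromosome 16 from 90220754 to 90226329, was at 1567, 1247 and 1526 CPM in KO 1, 2 and 4, against 857, 907 and 1026 CPM in WT 2, 4 and 11. The groups did not overlap, the averages being 1447 ± 174 CPM in KO and 929.9 ± 86.7 CPM in WT (SD, n = 3 each) and the log2 fold change 0.64 ± 0.19 (adjusted p = 0.0453). The call was lost without KO 1 (adjusted p = 0.130), KO 2 (0.0511), WT 2 (0.199), WT 4 (0.178) or WT 11 (0.0694), with library totals (0.120) and with no filter on low counts (0.0699). Sod2, the mitochondrial manganese enzyme, was at 209, 199 and 221 CPM in KO and 192, 186 and 192 CPM in WT livers. The groups lay close together without overlapping (0.14 ± 0.16, adjusted p = 0.572). The secreted Sod3 had a value of 0.42 ± 0.23 (adjusted p = 0.230).

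The glutathione peroxidases differed from each other. Gpx3, the secreted plasma form, lies on chromosome 11 from 54902453 to 54910377 and was at 12.1, 8.11 and 6.86 CPM in KO 1, 2 and 4, against 2.99, 2.19 and 5.94 CPM in WT 2, 4 and 11. WT 11 came close to KO 4, and the log2 fold change was 1.27 ± 0.37 (adjusted p = 0.0398), a call that was lost without KO 1 (0.139), KO 2 (0.0774), WT 2 (0.122) or WT 4 (0.126). Gpx1, the abundant cytosolic and mitochondrial form, was at 771, 680 and 1699 CPM in KO 1, 2 and 4, against 1605, 1561 and 1942 CPM in WT 2, 4 and 11. KO 1 and 2 lay below every WT liver while KO 4 lay among them, and the gene did not pass (−0.70 ± 0.32, adjusted p = 0.155). It was called without KO 4 (−1.24, adjusted p = 0.00104) and with no filter on low counts (−0.75, adjusted p = 0.0129). Gpx4, which reduces lipid peroxides in membranes, was at 337, 270 and 324 CPM in KO and 234, 253 and 287 CPM in WT livers (0.27 ± 0.18, adjusted p = 0.323), and 34.7% of the 50-base words in its transcripts also occur in pseudogenes or other transcripts.

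No peroxiredoxin was called. Most of these thiol peroxidases are reduced by thioredoxin, while Prdx6 uses glutathione. Prdx1, the main cytosolic form, was at 407, 428 and 760 CPM in KO 1, 2 and 4, against 668, 701 and 729 CPM in WT 2, 4 and 11, so KO 1 and 2 lay below the WT livers and KO 4 above them (−0.40 ± 0.25, adjusted p = 0.290). Without KO 4 it was called at −0.76 (adjusted p = 0.00521). The log2 fold changes of the others were 0.00 ± 0.20 for the cytosolic Prdx2, −0.25 ± 0.18 for the mitochondrial Prdx3, 0.05 ± 0.22 for Prdx4 of the endoplasmic reticulum, 0.00 ± 0.24 for Prdx5 and −0.24 ± 0.18 for Prdx6. KO 4 held the highest level of the 3 KO livers for each of the 6 peroxiredoxins, from 94.0 CPM for Prdx3 to 760 CPM for Prdx1. The methionine sulfoxide reductases, which repair oxidised methionine, were at 92.9, 116 and 158 CPM in KO and 151, 140 and 167 CPM in WT livers for Msra (−0.31 ± 0.21, adjusted p = 0.326). Msra was called without KO 4 (−0.55, adjusted p = 0.0348), and Msrb1, a selenoprotein, did not pass (−0.30 ± 0.19, adjusted p = 0.293).

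**Figure D4:**
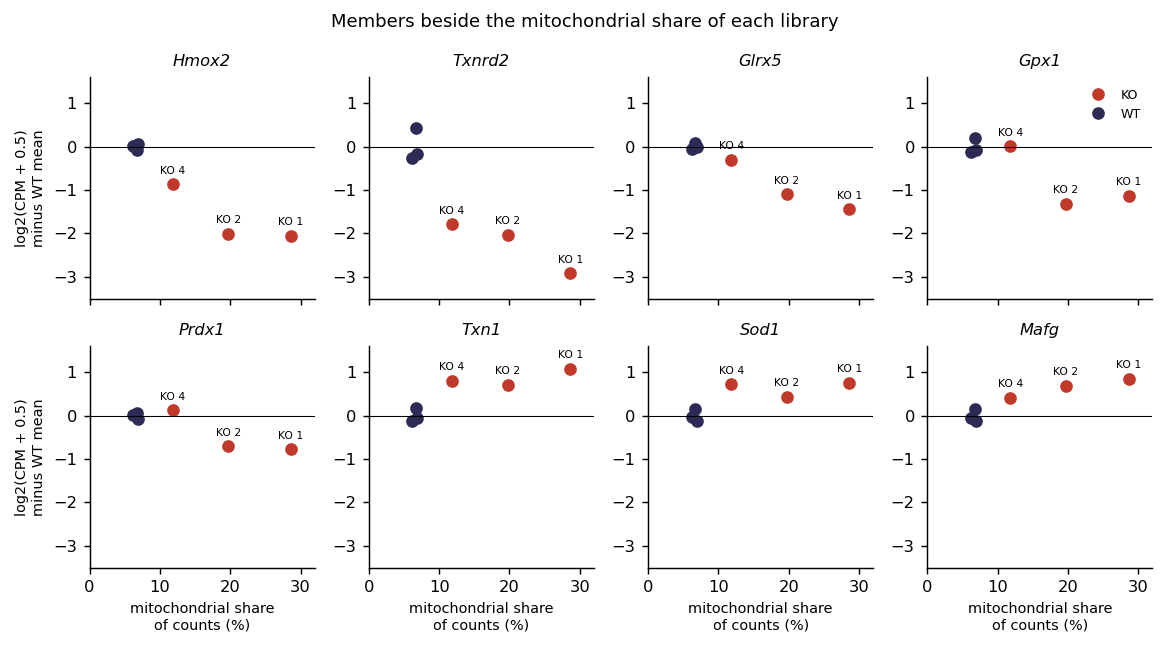
Difference from the WT mean on the scale of log2(CPM + 0.5) (y axis) beside the share of counts on mitochondrially encoded genes (x axis, %) for 8 members in KO (red) and WT (dark) livers. For Glrx5, Gpx1 and Prdx1, KO 4, at a share of 11.8%, lies nearer to the WT livers than KO 1 and 2 do. For Txn1, Sod1 and Mafg all 3 KO livers lie above the WT livers, and for Mafg KO 4 lies nearest to WT. No WT liver has a share as high as that of a KO liver.

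The plot of levels beside the mitochondrial share shows how the members divided among the KO livers. On the scale of log2(CPM + 0.5) minus the WT mean, Glrx5 was at −1.45, −1.10 and −0.32 in KO 1, 2 and 4, and Gpx1 at −1.14, −1.32 and 0.00. Txn1 was at 1.09, 0.72 and 0.79 and Sod1 at 0.76, 0.43 and 0.72 in the same livers, so that KO 4 was as far from WT as KO 2 or farther. The other risers, Mafg (0.84, 0.69 and 0.42) and Gpx3 (1.68, 1.13 and 0.91), were nearest to WT in KO 4. The median over the 38 members was −0.13, 0.03 and 0.05 in KO 1, 2 and 4 and −0.06, −0.04 and 0.13 in WT 2, 4 and 11. Genotype and mitochondrial share cannot be told apart in these livers, since every KO share exceeded every WT share.

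**Figure D5:**
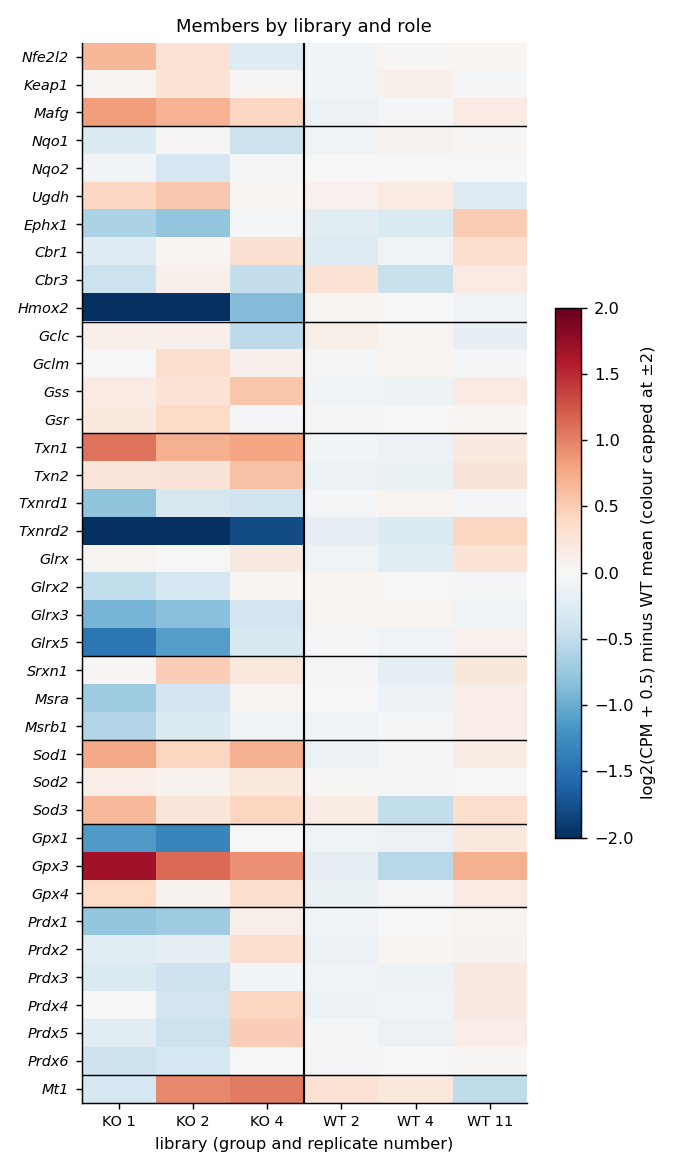
Difference of each of the 38 tested members (rows, in blocks by role) from its WT mean in each of the 6 libraries (columns, KO left of WT), as log2(CPM + 0.5). Hmox2, Txnrd2, Glrx3 and Glrx5 are blue and Txn1, Mafg, Sod1 and Gpx3 red in all KO columns, and the KO 4 column is paler than KO 1 and 2 for Gpx1, Prdx1, Msra and Ephx1.

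The metallothioneins, small cysteine-rich proteins that bind zinc and copper and are induced by metals and stress hormones, did not show a called change. Mt1 was at 26.2, 65.1 and 69.3 CPM in KO 1, 2 and 4, against 41.0, 38.6 and 23.4 CPM in WT 2, 4 and 11. KO 1 lay among the WT livers and KO 2 and 4 above them (0.64 ± 0.34, adjusted p = 0.210). Mt2 held 1, 8 and 2 counts in KO and 0, 1 and 3 counts in WT livers, was not tested, and is given no fold. Of the exon length of Mt2, 73.5% is overlapped on the other strand by Gm45774, which held 0 counts in 5 libraries and 1 count in WT 11. Reads in such an overlap may be left out of counts made without strand, so the level of Mt2 in these livers cannot be read from this table.

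Per kilobase of exon, the levels of the members spanned a wide range. In WT livers Gpx1 was highest at 1182 ± 144 CPM per kilobase, followed by Msrb1 at 282 ± 24.4, Ephx1 at 270 ± 88.4, Txn1 at 253 ± 28.5, Sod1 at 234 ± 21.8 and Prdx1 at 230 ± 10.1 CPM per kilobase. Neighbours among the last 5 differed by less than their SDs. In KO livers Gpx1 was again first at 729 ± 391 CPM per kilobase, then Txn1 at 463 ± 64.4 and Sod1 at 364 ± 44.0, followed by Msrb1 at 229 ± 39.1 CPM per kilobase. The lowest tested members were Txnrd2 at 0.331 ± 0.162 CPM per kilobase in KO and 1.94 ± 0.565 in WT livers, and Cbr3 at 0.354 ± 0.176 in KO and 0.510 ± 0.225 in WT livers (SD, n = 3 each throughout). The length is that of all annotated exons of a gene, which lowers the value of genes with long minor isoforms such as Sod2.

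The wider pathway was read from 62 further genes of NRF2 signalling, NADPH and glutathione supply, selenoproteins and glutathione transferases. Of the 58 tested, 1 rose and 5 fell, a share of 10.3% against 17.0% of all tested genes, and their median log2 fold change was −0.12. Txnip, which binds and inhibits thioredoxin, rose and was at 238, 204 and 125 CPM in KO 1, 2 and 4, against 59.8, 106 and 72.5 CPM in WT 2, 4 and 11 (1.25 ± 0.28, adjusted p = 0.0161). Cul3, the scaffold of the ligase that works with KEAP1, fell and was at 21.8, 27.5 and 37.3 CPM in KO and 64.2, 62.2 and 47.5 CPM in WT livers (−1.0 ± 0.22, adjusted p = 0.0162). For both genes the 3 KO livers lay on one side of the 3 WT livers. The call of Txnip was lost without KO 1 (adjusted p = 0.0632), KO 2 (0.0538), WT 2 (0.0624) or WT 11 (0.0538), and that of Cul3 without KO 1 (0.0596), KO 2 (0.0598), WT 2 (0.0606) or WT 4 (0.0625). Of the exon length of Txnip, 19.4% is overlapped by Gm15441 on the other strand.

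Of the enzymes that supply NADPH, Me1, the malic enzyme, fell to 107 ± 12.4 CPM in KO livers, against 217 ± 67.9 CPM in WT livers (SD, n = 3 each, −1.02 ± 0.24, adjusted p = 0.0197), and 28.3% of its 50-base words occur in other genes. The mitochondrial isocitrate dehydrogenase Idh2 was at 37.6, 43.7 and 89.5 CPM in KO 1, 2 and 4 and at 107, 124 and 122 CPM in WT 2, 4 and 11, and fell (−1.04 ± 0.29, adjusted p = 0.0372), with KO 4 nearest to WT. The other listed genes of NADPH supply (G6pdx, Pgd, Tkt, Taldo1, Idh1 and Nnt) did not pass, with values from −0.31 for Idh1 to 0.39 for Tkt. The value of Nnt is uncertain. Its symbol has a further entry in the counts, which was not read. The entry read held 11 to 24 counts per library and shares 47% of its 50-base words with the further entry or other genes. Gsta3, an alpha-class glutathione transferase, fell to 829 ± 331 CPM in KO livers, against 2036 ± 309 CPM in WT livers (SD, n = 3 each, −1.30 ± 0.28, adjusted p = 0.0144). No other listed glutathione transferase passed, and their values ran from −0.44 for Gstp1 to 1.04 for Gsta1. Both ends of this range are uncertain. Of the 50-base words of Gsta1, which held 17 to 96 counts per library, 90.5% occur in other genes, and 33.7% of those of Gstp1 do. Chac1, which degrades glutathione, fell at a low level (−1.42 ± 0.37, adjusted p = 0.0281), with 2.30 ± 1.01 CPM in KO and 6.12 ± 2.01 CPM in WT livers. Gsta3 lost its call without KO 1 (adjusted p = 0.0591). Me1 lost it without KO 1 (0.0759), KO 2 (0.0656), WT 2 (0.0618) or WT 4 (0.0893), and Idh2 without KO 1 (0.118), KO 2 (0.120), WT 2 (0.0683), WT 4 (0.101) or WT 11 (0.0817). Chac1 lost it without KO 2 (0.0926), WT 2 (0.0859) or WT 4 (0.0996). Catalase (Cat), named after its values were seen, which breaks down hydrogen peroxide in peroxisomes, was at 2077, 2074 and 2550 CPM in KO and 2830, 2780 and 2840 CPM in WT livers and did not pass (−0.33 ± 0.19, adjusted p = 0.245).

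Selenoproteins, which carry selenocysteine, had fold changes of both signs. Selenop, the plasma carrier of selenium made by hepatocytes, was named after its values were seen. It was at 151, 335 and 2151 CPM in KO 1, 2 and 4, against 4040, 4459 and 4292 CPM in WT 2, 4 and 11, so all KO livers lay below WT and KO 4 lay far from the other KO livers (−2.28 ± 0.75, adjusted p = 0.0605). Of its exon length, 15.4% is overlapped by Ccdc152 on the other strand. Selenow (0.38), Sephs2 (0.27), Selenot (0.03) and Txnrd3 (−0.23), also among the further genes, did not pass. Among the 39 antioxidant genes 6 encode selenoproteins, namely Gpx1, Gpx3, Gpx4, Txnrd1, Txnrd2 and Msrb1, and of these 1 rose, 1 fell and 4 did not pass. These 6 are too few for their share to be set against the 17.0% called over all tested genes.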

How the data were processed

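Counts per gene were deposited by the authors as whole numbers for 6 liver libraries, 3 KO and 3 WT, with no normalization. Per the labels' protocols, a Qiagen RNeasy kit was used for RNA and a SMARTer kit for libraries; the submitters' processing notes name build mm10. The sources used here do not name the aligner, counting program, annotation or strandedness. The whole table was fitted in R 4.3.3 with edgeR 4.0.16 (filterByExpr, TMM, quasi-likelihood F test, Benjamini-Hochberg adjustment, threshold 0.05). The standard error is the size of the log2 fold change over the root of F. The script was tested on simulated data. Positions, exon lengths and shared 50-base words come from GENCODE M21, which held 54165 of the table's IDs and all 39 members. The members and lists were chosen with earlier results of these data known. Values in every library are given, by rule, for called members and for these whatever their result: Nfe2l2, Keap1, Nqo1, Gclc, Gclm, Txn1, Txnrd1, Srxn1, Sod1, Sod2, Gpx1, Gpx4, Mt1 and Mt2. Values in every library of Ephx1, Prdx1, Msra, Txn2, Cdip1, Cat, Selenop and the marker Cps1 lie outside this rule and were chosen after their values were seen; the first 3 are members that gained a call without KO 4. Alternatives were DESeq2 1.42.0, library totals, other filters, left-out libraries, a replicate block, mitochondrial genes removed and their share as a covariate. Libraries of 1 genotype differed by 15.2 to 122 chi-square units per degree of freedom, far above the sampling noise of about 1, so none was counted as a duplicate. P-values set the difference between genotypes against the spread among livers of 1 genotype, and do not separate genotype from mitochondrial share. Floors cover counting error only.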

Additional observations from a re-analysis of the deposited data

How the results depend on the processing

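Among 531 recomputed fold changes of single members, 474 kept their side of the threshold, 50 lost the call, 7 gained it and 0 called ones changed sign. Only the 8 called members could lose a call, so all 50 losses fell on them, and their share of the 531 understates how often they did. Of the 8, 2 kept the call without KO 1, WT 2 or WT 4, 8 without KO 4 and 0 with the mitochondrial covariate. DESeq2, a filter of 1 CPM in 3 libraries and the removal of mitochondrial genes each called the same 8 members. In these settings 20.6%, 17.9% and 17.2% of all tested genes were called. Leaving out 1 library gave 0 to 4 members called higher and 2 to 9 lower, 300 to 1885 of all tested genes called higher and 330 to 2161 lower. The median of the members then ran from −0.14 to 0.075 and that of all tested genes from −0.0057 to 0.029. Library totals gave 2 members higher, 690 of all tested genes higher, a median of −0.15 for the members and −0.16 for all tested genes. The mitochondrial covariate gave 0 members higher, 0 lower, 0 of all tested genes higher, 0 lower, and a members' median of 0.16. No filter on low counts gave 1832 of all tested genes lower and a median over them of 0.045. KO 4 alone, added after the data had been examined, gave 0 members higher, 0 lower, 16 of all tested genes higher, 9 lower, and a median of −0.031 over all tested genes. The cause of these differences was not tested.

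The replicate block, on the 4 libraries numbered 2 and 4, gave 2 members higher (Gpx3 and Mt1) and 2 lower (Hmox2 and Txnrd2). It called 1588 of 13380 tested genes (11.9%), 714 of them higher. The shared numbers do not pair the livers by any label, and deviations from the group mean correlated at −0.05 between the libraries numbered 2 and 0.06 between those numbered 4. Depth limits Cbr3, at 5 to 18 counts, and Mt2, at 0 to 8 counts, most.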
